A study of Mus musculus with 6 samples.

Results

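Transcripts of 10 C-type lectin receptors were followed in mouse bone marrow-derived macrophages, which are cells grown from marrow into macrophages in culture. The receptors are Clec4a1, Clec4a2, Clec4a3, Clec4d, Clec4e, Clec4n, Clec5a, Clec7a, Clec10a and Clec12a. They were taken by gene symbol, and all 10 had a row among the 55335 genes of the deposited table. The marrow came from male wildtype C57BL/6 mice aged 6 to 8 weeks, and the cells were used after 6 days of culture. All samples received conditioned medium (CM), mixed 1:1, for 4 h. This medium came from pancreatic acinar cells that had been given caerulein, a secretagogue that overstimulates them, at 200 nM for 5 h. The CM + 4OI group (3 samples) also had 4-octyl itaconate (4OI), a cell-permeable derivative of the macrophage metabolite itaconate, at 200 µM, and the CM group (3 samples) had the medium alone. The replicates were independent cultures per the labels' extraction protocol, which do not say how many mice they came from. Macrophages without conditioned medium were not analysed here.

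C-type lectin receptors are membrane proteins of myeloid cells that recognise sugars and lipids of microbes and products of dying cells. Some activate the cell: Clec7a (Dectin-1) through a tyrosine motif of its own, and Clec4n (Dectin-2), Clec4d (MCL) and Clec4e (Mincle) through the Fc receptor gamma chain, with the kinase Syk and the adaptor Card9 downstream. Others, such as Clec4a2 (DCIR) and Clec12a (MICL), carry inhibitory motifs that recruit the phosphatases of Ptpn6 and Ptpn11.

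With 4OI added, the receptors split. Clec4d, Clec4n and Clec7a rose, to 1.59, 1.69 and 1.31 times their CM level, and Clec4a1, Clec4a3, Clec4e, Clec5a and Clec12a fell, to between 0.375 (Clec4e) and 0.746 (Clec4a3) times their CM level. Clec4a2 and Clec10a were not called. So 8 of 10 were called by limma on log2(FPKM + 1) at an adjusted p under 0.05, where 32.5% of the 10468 tested genes were called, 19.3% as higher and 13.2% as lower. FPKM are fragments per kilobase of transcript, scaled to the mapped fragments of the library, so they compare levels between genes per length. The median log2 fold change of the 10 was -0.13, against 0.06 over all genes tested. With median-of-ratios scaling 1371 genes were higher and 1696 lower, against 2020 and 1385 as deposited (1311 higher without CM + 4OI replicate 2), and Clec7a was not called (adjusted p = 0.069). The CM + 4OI and CM values did not overlap in the 8 called receptors, as they did not in 49.0% of tested genes.

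Neighbouring genes at the end of the Clec4 cluster went opposite ways, and their promoter windows are shown for that reason. Clec4d and Clec4e lie on opposite strands of chromosome 6, their 3′ ends facing each other across 6.52 kb and their starts 27.8 kb apart. Clec12a, from another stretch of the same chromosome, is shown beside them because its window holds the same C/EBP motif as that of Clec4e. The Clec12a start lies inside the annotated gene. Each window runs from 250 bases before to 50 bases after the RefSeq start (GRCm38.p6, which is mm10), 5′ to 3′ on the strand of the gene. Clec4d is chr6:123261857-123262156 on the plus strand, Clec4e is chr6:123289822-123290121 on the minus strand and Clec12a is chr6:129349994-129350293 on the plus strand. Capitals mark matches to the motifs described after the sequences.
Clec4d: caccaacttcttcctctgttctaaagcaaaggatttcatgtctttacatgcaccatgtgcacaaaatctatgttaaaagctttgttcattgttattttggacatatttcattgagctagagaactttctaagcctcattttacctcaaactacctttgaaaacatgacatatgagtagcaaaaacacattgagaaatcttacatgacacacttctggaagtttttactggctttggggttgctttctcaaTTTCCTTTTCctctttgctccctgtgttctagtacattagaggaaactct
Clec4e: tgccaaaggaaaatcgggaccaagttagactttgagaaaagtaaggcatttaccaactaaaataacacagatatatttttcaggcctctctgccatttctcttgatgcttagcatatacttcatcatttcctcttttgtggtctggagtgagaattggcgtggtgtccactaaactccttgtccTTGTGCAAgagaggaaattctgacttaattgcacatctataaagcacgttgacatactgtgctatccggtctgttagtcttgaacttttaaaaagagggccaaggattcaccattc
Clec12a: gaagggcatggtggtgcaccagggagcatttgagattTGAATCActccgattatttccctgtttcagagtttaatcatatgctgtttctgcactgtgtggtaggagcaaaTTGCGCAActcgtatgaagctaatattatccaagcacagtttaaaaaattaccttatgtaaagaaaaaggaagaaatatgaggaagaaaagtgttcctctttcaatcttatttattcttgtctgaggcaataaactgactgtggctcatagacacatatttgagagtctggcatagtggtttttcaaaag

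Windows were found for 8 of the 10 receptors, 10 windows in all, and were searched on both strands for C/EBP (TTGCNNAA), PU.1 (GAGGAAGT), NF-kB (GGGA and CC with 4 bases between them), AP-1 (TGANTCA), the antioxidant response element (TGACNNNGC) and the interferon-stimulated response element, ISRE (GAAA and GAAA with 2 bases between them). In the Clec4e window the C/EBP letters matched as TTGTGCAA at -66 to -59 from the start, on the reverse strand. In the Clec12a window they matched as TTGCGCAA at -140 to -133. The AP-1 letters, which allow any middle base, matched there as TGAATCA at -213 to -207. Of all 32851 windows 10.8% held the C/EBP letters and 7.81% those of AP-1. None of the 10 windows but these of Clec4e and Clec12a held C/EBP letters. Those of Clec4a1, Clec4a3 and Clec5a, which also fell, lacked them. Whether the letters bear on the changes was not tested. The Clec4d window held only ISRE letters, on the reverse strand over the first bases of the transcript (1 to 10), which 3.44% of all windows held. Outside those shown, the Clec4a1 window held 1 NF-kB match and that of Clec4a2 1 AP-1 match, against 20.7% of all windows with NF-kB letters. The Clec4a2 start, like that of Clec12a, lies inside the annotated gene. The windows of Clec4a3, Clec5a and Clec7a held none of the 6 motifs. PU.1 and antioxidant response element letters, which 3.20% and 12.4% of all windows held, were in none of the 10 windows. The PU.1 letters left no base free, unlike those of the other motifs. Shorter or near matches were not searched, so sites of that kind may be present.

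Depths, estimated from the commonest step of FPKM times transcript length, were 22.0 to 25.3 M fragments in CM + 4OI libraries and 18.0 to 24.5 M in CM libraries. Macrophage genes were abundant in all libraries: Cd68 averaged 830 ± 19.3 FPKM in CM + 4OI and 855 ± 21.9 FPKM in CM, and Adgre1, which encodes F4/80, 316 ± 10.8 and 310 ± 15.3 FPKM in the same groups (SD, n = 3 each here and below). Of 10 macrophage markers (11 rows, as Itgam has 2, neither called) 4 fell and none rose by limma (0 at an unadjusted p under 0.05). Among all tested genes 13.2% were called lower and 19.3% higher. The 4 were Mertk, Fcgr1, Mrc1 and C1qa, the last not without replicate 2 of both groups or with no filter. The summed FPKM of the macrophage markers was 11052 to 11685 in CM + 4OI and 10993 to 11692 in CM. Lyz2 alone made up most of each sum, so the sums say little about the other markers. Of the other cell types that make some of these receptors, neutrophils had their defining gene Ly6g listed at 0 in every library. Other neutrophil markers were detected. S100a9 averaged 31.7 ± 3.64 FPKM in CM + 4OI and 32.8 ± 9.89 FPKM in CM. Ngp averaged 19.2 ± 2.88 and 21.6 ± 3.72 FPKM in the same groups. Mpo, Elane and Cxcr2 averaged under 1 FPKM over all libraries. The summed FPKM of 10 neutrophil markers was 80.7 to 96.1 in CM + 4OI and 73.2 to 114 in CM, and 1 of the 6 tested, Mmp8, rose, a call lost with no filter, without replicate 2 of both groups and without any one of CM + 4OI replicates 2 and 3 and CM replicates 1 and 3. Among 10 dendritic cell markers Flt3 was listed at 0 throughout and the sum was 1.20 to 1.30 FPKM in CM + 4OI and 1.19 to 1.88 FPKM in CM, so none could be tested. The sums were 0.618 to 0.768 FPKM in CM + 4OI and 0.639 to 0.765 FPKM in CM for 8 lymphocyte markers, and 5.86 to 11.6 and 5.15 to 9.85 FPKM in the same groups for 10 acinar cell markers, of which 3 were tested and none was called by limma (0 at an unadjusted p under 0.05). The sum of 6 fibroblast markers was 29.8 FPKM in CM + 4OI replicate 2 and 52.9 FPKM in CM replicate 2, against 8.12 to 8.20 and 5.85 to 9.24 FPKM in the other CM + 4OI and CM libraries, and none of the 3 tested was called (0 at an unadjusted p under 0.05). The part of these markers in the results was not tested. Without replicate 2 of both groups 2 receptors rose, Clec7a being lost, and 5 fell. In bulk RNA, fewer cells of a type and less RNA per cell cannot be told apart.

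**Figure D1:**
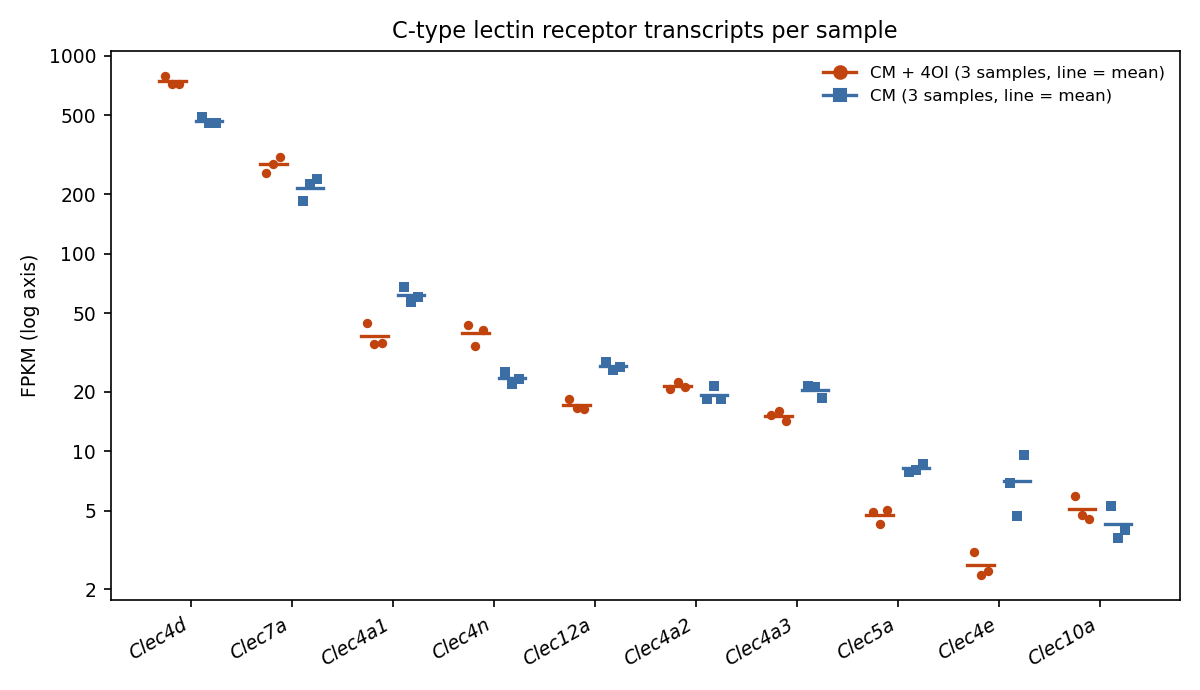
FPKM of the 10 receptors on a log axis, with 1 point per sample and the group mean as a line (CM + 4OI circles, CM squares). Clec4d and Clec7a stand far above the rest in both groups, and the groups overlap for Clec4a2 and Clec10a only.

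Clec4d was by far the most abundant of the receptors in both groups. Its protein, MCL, pairs with Mincle and binds mycobacterial glycolipid. Clec4d was at 794, 723 and 723 FPKM in CM + 4OI replicates 1, 2 and 3, and at 493, 456 and 455 FPKM in CM replicates 1, 2 and 3. All CM + 4OI samples lay above all CM samples, and replicate 1 was the highest in each group. The means were 746 ± 41.2 FPKM in CM + 4OI and 468 ± 21.6 FPKM in CM (log2 fold change 0.67, SE 0.06, limma adjusted p = 0.000319). The gene (ENSMUSG00000030144) spans 123262111 to 123275265 on the plus strand of chromosome 6 in GENCODE M21 on mm10.

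Clec4e, which encodes Mincle, a receptor for mycobacterial cord factor and for the nuclear protein SAP130 released by dead cells, went the other way from a low level. It was at 3.10, 2.35 and 2.47 FPKM in CM + 4OI and at 6.89, 4.69 and 9.58 FPKM in CM. All CM samples were higher and they spread more widely, with replicate 3 the highest and replicate 2 the lowest of them. The means were 2.64 ± 0.405 FPKM in CM + 4OI and 7.06 ± 2.45 FPKM in CM (log2 fold change -1.11, SE 0.22, limma adjusted p = 0.0104). This was the lowest log2 fold change among the 10. The gene (ENSMUSG00000030142) spans 123281789 to 123289870 on the minus strand.

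The ratio of Clec4d to Clec4e FPKM was 256, 307 and 293 in CM + 4OI replicates 1, 2 and 3, and 71.6, 97.1 and 47.5 in the CM replicates. The 2 transcripts thus differed 285 ± 26.5-fold in FPKM in CM + 4OI and 72.1 ± 24.8-fold in CM. The size of this ratio depends on the transcript lengths behind the FPKM, which are not known here. The longest annotated transcript is 1323 nt for Clec4d and 4804 nt for Clec4e. This pair was picked after its values were seen, and the ratio is given as a description.

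Clec4n, the gene of the mannan receptor Dectin-2, rose with Clec4d, its neighbour in the cluster. Its FPKM were 43.6, 34.2 and 40.9 in CM + 4OI and 25.2, 21.9 and 23.3 in CM, so that even the lowest CM + 4OI sample, replicate 2, lay above every CM sample. The means were 39.6 ± 4.86 FPKM in CM + 4OI and 23.5 ± 1.62 FPKM in CM (log2 fold change 0.72, SE 0.10, limma adjusted p = 0.00209), the highest log2 fold change among the 10. The gene (ENSMUSG00000023349) spans 123229843 to 123247021 on the plus strand of chromosome 6.

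Clec7a, which encodes the beta-glucan receptor Dectin-1, was next in abundance. It was at 256, 285 and 309 FPKM in CM + 4OI and at 184, 225 and 237 FPKM in CM. The groups did not overlap, although the lowest CM + 4OI sample and the highest CM sample were close. The means were 283 ± 26.5 FPKM in CM + 4OI and 215 ± 27.7 FPKM in CM (log2 fold change 0.40, SE 0.11, limma adjusted p = 0.0362). In both groups replicate 1 was the lowest and replicate 3 the highest, and the log2 differences within the numbers 1, 2 and 3 were 0.47, 0.34 and 0.38. With the replicate number as a block the adjusted p was 0.00171. Under 7 of 18 alternatives it was no longer called (limma adjusted p at most 0.131), among them those without CM + 4OI replicate 2 (0.099), CM + 4OI replicate 3 (0.108), CM replicate 1 (0.0625) or CM replicate 2 (0.0581). The gene (ENSMUSG00000079293) spans 129461591 to 129472779 on the minus strand of chromosome 6, and GENCODE M21 classes it as a polymorphic pseudogene.

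Clec5a, whose protein MDL-1 signals through the adaptor of Tyrobp, fell. Its FPKM were 4.92, 4.26 and 5.07 in CM + 4OI and 7.86, 8.05 and 8.64 in CM. The replicates of each group lay close together and the groups far apart. The means were 4.75 ± 0.428 FPKM in CM + 4OI and 8.18 ± 0.407 FPKM in CM (log2 fold change -0.68, SE 0.07, limma adjusted p = 0.00074). The gene (ENSMUSG00000029915) stands apart from the other receptor genes of chromosome 6, at 40574894 to 40585821 on the minus strand.

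Of the DCIR genes among the 10 receptors, Clec4a1 and Clec4a3 fell and Clec4a2 was not called. Clec4a1 was at 44.6, 34.8 and 35.2 FPKM in CM + 4OI and at 68.1, 56.8 and 59.98 FPKM in CM (log2 fold change -0.68, SE 0.11, limma adjusted p = 0.00506). Clec4a3 was at 15.3, 15.9 and 14.2 FPKM in CM + 4OI and at 21.3, 21.0 and 18.6 FPKM in CM (log2 fold change -0.40, SE 0.07, limma adjusted p = 0.00561). In both, every CM + 4OI sample lay below every CM sample. Clec4a2, the gene of DCIR with its inhibitory motif, was at 20.6, 22.3 and 21.1 FPKM in CM + 4OI and at 18.3, 21.3 and 18.3 FPKM in CM. Its groups overlapped through CM replicate 2, which lay among the CM + 4OI samples. Its log2 fold change of 0.14 had a 95% interval of -0.03 to 0.31 (limma adjusted p = 0.174), and it was called without CM replicate 2 (adjusted p = 0.0343). These genes lie on the plus strand of chromosome 6, Clec4a1 (ENSMUSG00000049037) at 122921848 to 122934619, Clec4a3 (ENSMUSG00000043832) at 122952515 to 122969875 and Clec4a2 (ENSMUSG00000030148) at 123106428 to 123143999.

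Clec12a, the gene of the inhibitory receptor MICL, which recognises uric acid crystals, fell with a narrow spread. It was at 18.3, 16.6 and 16.4 FPKM in CM + 4OI and at 28.1, 25.7 and 26.7 FPKM in CM. The lowest CM sample lay well above the highest CM + 4OI sample. The means were 17.1 ± 1.06 FPKM in CM + 4OI and 26.9 ± 1.20 FPKM in CM (log2 fold change -0.62, SE 0.06, limma adjusted p = 0.000473). The gene (ENSMUSG00000053063) spans 129342691 to 129365303 on the plus strand of chromosome 6.

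Clec10a, the gene of the galactose-type lectin MGL1 and the only member outside chromosome 6, was low and overlapped between the groups. It was at 5.95, 4.78 and 4.56 FPKM in CM + 4OI and at 5.29, 3.62 and 4.00 FPKM in CM. The CM + 4OI sample was the higher one within each replicate number, but CM replicate 1 exceeded 2 of the CM + 4OI samples. The log2 fold change was 0.21, with a 95% interval of -0.13 to 0.54 (limma adjusted p = 0.301). The gene (ENSMUSG00000000318) is at 70156197 to 70170834 on the plus strand of chromosome 11. About 168 fragments lay behind its lowest value, in CM replicate 3, and about 249 behind that of Clec4e, in CM + 4OI replicate 2, counted over the longest annotated transcript, so counting error is largest for these low genes.

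The order of the levels differed between the groups below Clec4d and Clec7a. From high to low it was Clec4d, Clec7a, Clec4n, Clec4a1, Clec4a2, Clec12a, Clec4a3, Clec10a, Clec5a and Clec4e in CM + 4OI. It was Clec4d, Clec7a, Clec4a1, Clec12a, Clec4n, Clec4a3, Clec4a2, Clec5a, Clec4e and Clec10a in CM. Neighbours whose samples overlapped were Clec4n and Clec4a1, and Clec10a and Clec5a, in CM + 4OI. In CM they were Clec4a3 and Clec4a2, Clec5a and Clec4e, and Clec4e and Clec10a.

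Summed over the 10 receptors, FPKM came to 1206, 1143 and 1171 in CM + 4OI and to 858, 844 and 862 in CM. Clec4d and Clec7a together made up 87.7% ± 0.628 of that sum in CM + 4OI and 79.98% ± 0.942 in CM. Clec4d alone made up 63.6% ± 2.09 and 54.8% ± 2.39 in the same groups, and Clec7a 24.2% ± 2.66 and 25.2% ± 3.28. The remaining 8 receptors summed to 144 ± 11.2 FPKM in CM + 4OI and 171 ± 9.11 FPKM in CM. The total was thus set by 2 genes, and the other 8 together were lower with 4OI in every sample.

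**Figure D2:**
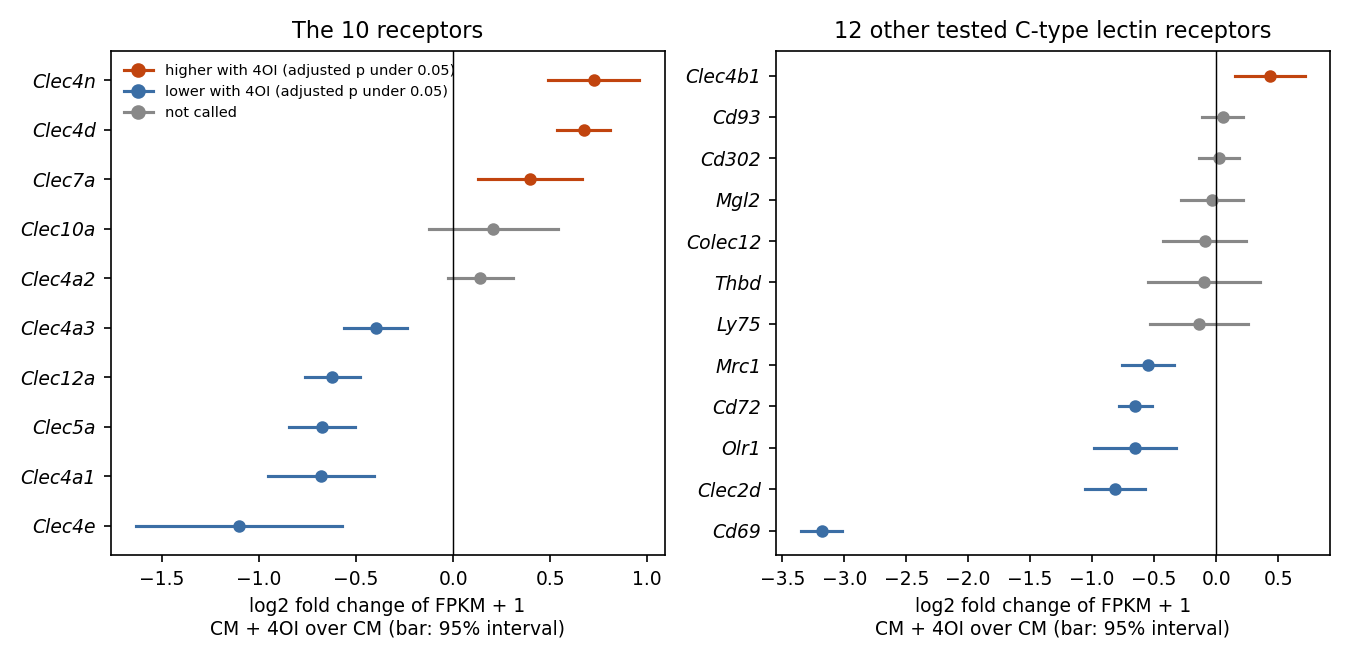
Log2 fold changes of FPKM + 1, CM + 4OI over CM, with 95% intervals, for the 10 receptors (left) and the 12 tested genes of a list of other C-type lectin receptors (right, on its own scale). Intervals clear of 0 lie on both sides among the 10, while among the others Clec4b1 is the single gene called higher.

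Among 33 other C-type lectin receptors 12 reached the filter of a mean of 1 FPKM, of which 1 rose and 5 fell. Their median log2 fold change was -0.12. The shares over all tested genes were 19.3% called higher and 13.2% lower. Of the 33, 5 (Clec4f, Clec4g, Cd209b, Cd209d and Asgr1) were listed at 0 in all samples. Cd69, a lymphocyte and macrophage activation marker, was at 0.389 ± 0.106 FPKM in CM + 4OI and 11.6 ± 0.245 FPKM in CM (log2 fold change -3.18, limma adjusted p = 3.66e-06). Clec2d, the ligand of an inhibitory natural killer cell receptor, was at 38.0 ± 4.22 FPKM in CM + 4OI and 67.5 ± 6.35 FPKM in CM (log2 fold change -0.81, limma adjusted p = 0.00147). The oxidised lipoprotein receptor Olr1 (log2 fold change -0.65, limma adjusted p = 0.0129) and Cd72, a receptor with inhibitory motifs (log2 fold change -0.65, limma adjusted p = 0.000309), also fell. Mrc1, the mannose receptor, fell too, to 50.8 ± 2.86 FPKM in CM + 4OI, against 75.2 ± 8.86 FPKM in CM (limma adjusted p = 0.00433). Mgl2, the near copy of Clec10a, was at 1.38 ± 0.118 FPKM in CM + 4OI and 1.45 ± 0.302 FPKM in CM (limma adjusted p = 0.838).

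Along the Clec4 cluster of chromosome 6, changes of both signs stood side by side. The stretch from Clec4a1 to Clec4e covers 368 kb and 9 protein-coding genes, all of them C-type lectin genes, of which 7 were tested. In gene order Clec4a1 and Clec4a3 fell, Clec4b1 rose, Clec4a2 was not called, Clec4n and Clec4d rose and Clec4e fell. Clec4b1, which lies between members of the cluster, was at 3.53, 2.67 and 2.49 FPKM in CM + 4OI and at 1.71, 2.14 and 1.77 FPKM in CM (log2 fold change 0.43, SE 0.12, limma adjusted p = 0.0311). Its groups did not overlap, but the call was lost with no filter on low values and without CM + 4OI replicate 1 or 2, CM replicate 1 or 3, or replicate 2 of both groups. Clec4a4 and Clec4b2 stayed under 0.3 FPKM on average and were not tested. From Clec12a to Clec7a, over 130 kb, Clec12a fell and Clec7a rose, and Clec12b, Clec1b, Clec9a and Clec1a between them averaged at most 0.557 FPKM.

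**Figure D3:**
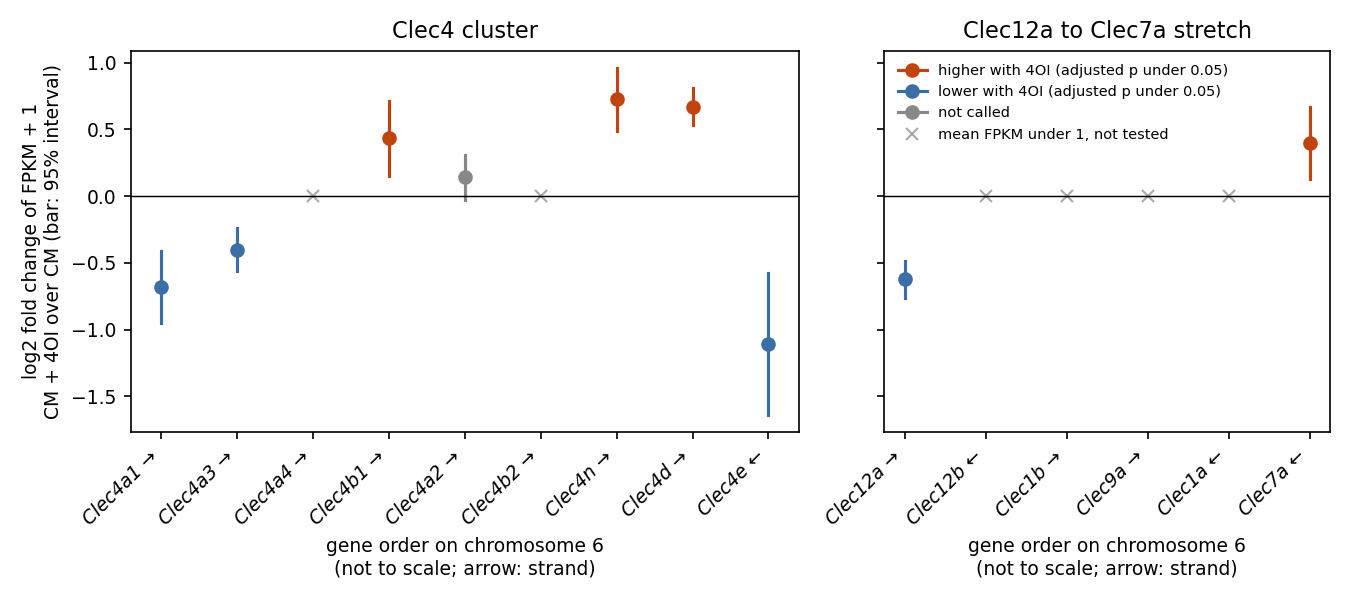
Log2 fold changes of FPKM + 1, CM + 4OI over CM, with 95% intervals, of the protein-coding genes and Clec7a, in their order on chromosome 6 from Clec4a1 to Clec4e (left) and from Clec12a to Clec7a (right). Crosses mark genes under a mean of 1 FPKM. Clec4n and Clec4d rose beside Clec4e, which fell.

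No exon of the 10 genes overlaps an exon of another annotated gene. Of the stretches of 100 bases in their annotated transcripts, 2.14% of those of Clec4a2 also occur in Clec4a4 and 2.64% of those of Clec10a in Mgl2. The other 8 receptors share no identical stretch of 100 bases with another annotated gene. Shorter or near-identical stretches were not searched. Clec4a4 averaged 0.254 FPKM and Mgl2 1.42 FPKM over all libraries. The part of shared reads in the values was not tested.

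Downstream of the activating receptors, Syk rose, and Lyn, Fgr and Src of the Src family fell. Of 15 adaptors and kinases of C-type lectin receptor signalling 2 rose and 5 fell, with a median log2 fold change of -0.17. Over all tested genes 19.3% were called higher and 13.2% lower. With median-of-ratios scaling 9 of them were lower. Syk, the kinase that binds the tyrosine motifs, was at 55.7 ± 2.37 FPKM in CM + 4OI and 42.5 ± 1.49 FPKM in CM (log2 fold change 0.38, limma adjusted p = 0.00152). Lyn, a Src-family kinase, was at 109, 90.9 and 93.7 FPKM in CM + 4OI and at 172, 156 and 162 FPKM in CM (log2 fold change -0.74, limma adjusted p = 0.000774). Fgr and Src, of the same family, had log2 fold changes of -0.56 and -0.40 (limma adjusted p = 0.0119 and 0.00742), and Vav1, a guanine nucleotide exchange factor, -0.48 (limma adjusted p = 0.00423). Src was not called without replicate 2 of both groups (adjusted p = 0.0737).

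The adaptor chains Fcer1g and Tyrobp were abundant, while Hcst, another of them, averaged 3.40 FPKM in CM + 4OI and 3.78 FPKM in CM. Fcer1g, the gamma chain used by Clec4n, Clec4d and Clec4e, averaged 323 ± 21.6 FPKM in CM + 4OI and 377 ± 26.4 FPKM in CM, with a log2 fold change of -0.22 (limma adjusted p = 0.0541). It was called lower with the replicate number as a block (adjusted p = 0.00545), with median-of-ratios or quantile scaling, with array weights, at a mean of at least 5 FPKM and without CM + 4OI replicate 1. Tyrobp, the partner of Clec5a, averaged 466 ± 11.8 FPKM in CM + 4OI and 466 ± 16.1 FPKM in CM (limma adjusted p = 0.99). Card9, the adaptor between Syk and NF-kB, averaged 9.02 ± 0.193 FPKM in CM + 4OI and 8.24 ± 0.451 FPKM in CM (limma adjusted p = 0.134), and its partners Bcl10 and Malt1 had log2 fold changes of -0.17 and -0.24 (limma adjusted p = 0.0539 and 0.0591). Both were called lower with median-of-ratios, quantile or upper-quartile scaling.

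Of the 3 phosphatases recruited by inhibitory motifs, Ptpn6, which encodes SHP-1, fell. It was at 18.6, 23.7 and 24.1 FPKM in CM + 4OI and at 41.9, 39.6 and 41.1 FPKM in CM, with all CM + 4OI samples far below the CM samples (log2 fold change -0.86, SE 0.10, limma adjusted p = 0.00104). Ptpn11, which encodes SHP-2, averaged 15.9 ± 0.566 FPKM in CM + 4OI and 14.5 ± 0.984 FPKM in CM (limma adjusted p = 0.159), and Inpp5d, the lipid phosphatase SHIP-1, 40.9 ± 3.36 and 42.1 ± 2.64 FPKM in the same groups (limma adjusted p = 0.688).

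**Figure D4:**
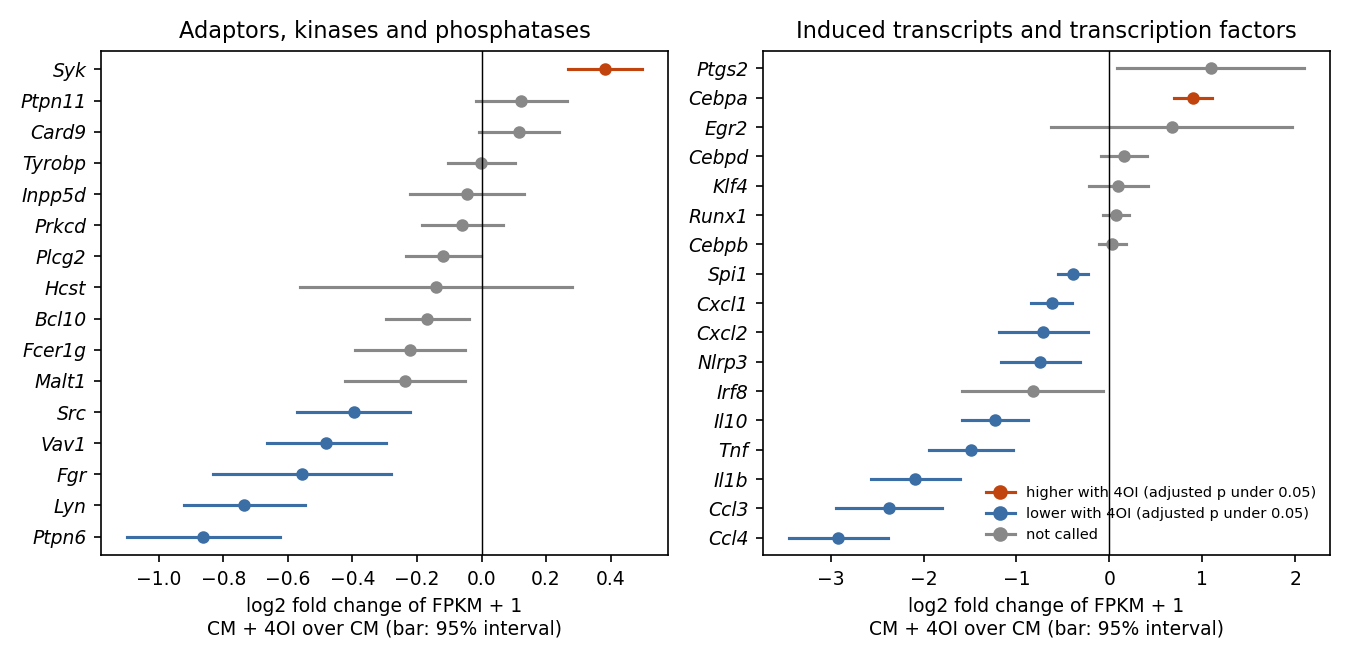
Log2 fold changes of FPKM + 1, CM + 4OI over CM, with 95% intervals, for adaptors, kinases and phosphatases of the receptors (left) and for transcripts their signalling can induce and transcription factors of myeloid genes (right, on its own scale). Syk lies to the right of 0, and Lyn, Fgr, Src and Ptpn6 lie to the left. Not all genes counted in the text are plotted.

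Of 17 transcripts that these receptors can induce 10 were tested, and 8 fell and 0 rose by limma (1 was higher at an unadjusted p under 0.05, Ptgs2), with a median log2 fold change of -0.99. Among all tested genes 19.3% were called higher and 13.2% lower. The listed transcripts also answer to Toll-like receptors and other inputs. The cytokine Tnf was at 25.6, 16.0 and 18.8 FPKM in CM + 4OI and at 69.4, 51.999 and 52.3 FPKM in CM (log2 fold change -1.49, limma adjusted p = 0.00153). The chemokines Ccl3 and Ccl4 had log2 fold changes of -2.37 and -2.92 (limma adjusted p = 0.000603 and 0.000201) and Il1b, of interleukin 1 beta, -2.09 (limma adjusted p = 0.000489). Ptgs2, the inducible cyclooxygenase, was at 12.5 ± 3.70 FPKM in CM + 4OI and 5.96 ± 4.32 FPKM in CM (limma adjusted p = 0.0924). With the replicate number as a block Ptgs2 was called higher (adjusted p = 0.0174), as it was without CM replicate 2 or replicate 2 of both groups.

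Among 8 tested transcription factors of myeloid genes 1 rose and 2 fell, where 32.5% of all tested genes were called. At an unadjusted p under 0.05 by limma 3 were lower, the third being Irf8. It averaged 10.5 ± 4.46 FPKM in CM + 4OI and 18.5 ± 3.71 FPKM in CM (limma adjusted p = 0.0906). Cebpa, a C/EBP factor of the myeloid lineage, was at 78.8 ± 8.40 FPKM in CM + 4OI and 41.6 ± 2.15 FPKM in CM (log2 fold change 0.90, limma adjusted p = 0.000466). Cebpb, which was described as an activator of Clec4e in lipopolysaccharide-treated macrophages, was at 157 ± 4.70 FPKM in CM + 4OI and 154 ± 11.7 FPKM in CM (limma adjusted p = 0.732). Spi1, which encodes PU.1, fell to 93.7 ± 6.94 FPKM in CM + 4OI, against 123 ± 7.02 FPKM in CM (limma adjusted p = 0.00605).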

How the data were processed

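Gene expression of 6 bulk RNA samples was sequenced as paired reads of 150 nt. The deposited values are FPKM per gene, normalised by the authors. FastQC 0.11.2 and the build mm10 are named, per the submitters' processing notes. Not given in the sources used here are the aligner, any strand setting, the quantifier and its annotation. Raw counts were not analysed here. The 10 receptors and all gene lists were chosen with earlier results of these data known.

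FPKM were tested as log2(FPKM + 1) with limma 3.58.1 (R 4.3.3), with a variance trend, on the 10468 genes with a mean of at least 1 FPKM in all 6 libraries together. The two-sided p-values were adjusted by Benjamini-Hochberg over all of these genes, with calls at 0.05. Fold changes on this scale understate those of low genes. The test was checked on simulated data with independent noise and few changed genes. That check does not cover data in which same-numbered samples deviate together or many genes change. Named are all 10 receptors, genes lying between them, up to 4 called genes of largest change from each list and the defining markers; any other gene was picked with its values known. A few list genes enter the counts and are not reported here.

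Same-numbered samples deviated together from their group means (r = 0.344, 0.427 and 0.185 for numbers 1, 2 and 3). The labels do not say whether a number pairs the samples across groups. The main fit did not use the numbers, and a fit with the number as a block was an alternative. In all 18 alternatives were run. Annotation was GENCODE M21 and promoter windows were from RefSeq, both on GRCm38. Python 3.11.15 and pandas 2.3.3 were used. P-values cover the spread between these cultures.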

Additional observations from a re-analysis of the deposited data

How the results depend on the processing

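Over the 18 alternatives none of the called genes with printed values changed direction, but the balance of all calls did: with median-of-ratios scaling 1371 genes were higher and 1696 lower. Among genes that were not called, 5 changed sign near 0. Tyrobp had log2 fold changes of 0.13 with quantile normalization, 0.0026 with array weights and 0.0050 without replicate 2 of both groups. Cebpb had -0.043 with median-of-ratios scaling, and Adgre1 -0.051 with that, -0.0038 with quantile and -0.0010 with upper-quartile scaling. Leaving out 1 library each, the log2 fold changes were -0.023 to 0.026 for Tyrobp, -0.099 to 0.017 for Inpp5d, -0.11 to 0.064 for Mgl2, -0.022 to 0.087 for Cebpb and -0.0018 to 0.065 for Adgre1. Of the 8 called receptors, 7 kept their call in every alternative that tested them; Clec4e was not tested at a mean of at least 5 FPKM, which left 4 receptors called lower. Clec7a lost its call with no filter on low values (adjusted p = 0.105), with median-of-ratios scaling (0.069), without replicate 2 of both groups (0.131), and without any one of CM + 4OI replicates 2 and 3 and CM replicates 1 and 2 (0.0581 to 0.108); Clec4a2 gained one without CM replicate 2 (0.0343). With the replicate block 3 receptors rose and 5 fell, as without it, and 2336 of all genes rose and 1523 fell. The block changed no receptor's call. With it Fcer1g (adjusted p = 0.00545) and Ptgs2 (0.0174) were called, so that 6 adaptors and kinases fell with it, against 5 without it. Over the fits that left out 1 library each, 1311 to 1855 of all genes were called higher, against 1089 without replicate 2 of both groups. Other counts also moved. Adaptors and kinases called lower were 9 with median-of-ratios scaling and 8 with quantile normalization. Other C-type lectin receptors called higher were 0 with no filter, at a mean of at least 5 FPKM and without replicate 2 of both groups, and 0 to 1 over the fits that left out 1 library. Induced transcripts called higher were 1 with the replicate block and without replicate 2 of both groups, and 0 to 1 over the fits that left out 1 library. The causes were not tested. Depth limits the low genes most, Clec10a and Clec4e among the receptors.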
